A study of Homo sapiens with 9 samples.

Results

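The claudins and tight junction proteins described here are CLDN1, CLDN2, CLDN3, CLDN4, CLDN6, CLDN7, CLDN14, OCLN, TJP1 and F11R. They were taken by name, with earlier results of these data known. Each was found under 1 Ensembl gene identifier in the count table, so that 10 of its 60664 genes are members. Of these, 9 passed the filter on low counts and were tested among 17207 genes, and CLDN3 was too low to be tested. The study asked what the vault RNAs, short non-coding RNAs first found in the vault ribonucleoprotein particle, do in hepatocellular carcinoma (HCC) cells. Per the study, only a minor fraction of them is bound to the particle. It sequenced stranded mRNA libraries of 3 lines of Huh7, an established human HCC cell line, namely WT, vtRNA1-1 KO (1-1 KO) and vtRNA1-2 KO (1-2 KO), with 3 libraries per line. All lines were grown in the same medium without treatment. The WT and 1-1 KO cells came from another laboratory, and the 1-2 KO was made on the WT cells with CRISPR/Cas9 as a single-cell clone. Each knockout is therefore 1 line, and the loss of the vault RNA and other differences between lines cannot be told apart. The labels number the libraries of a line without saying what separates them, so the p-values measure the spread between these libraries.

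Tight junctions seal the space between neighbouring epithelial cells. Claudins are 4-pass membrane proteins that form the junction strands, and according to the member they close the paracellular space or open it to selected ions. Occludin and the immunoglobulin-type protein JAM-A, encoded by F11R, lie in or beside the strands, and the scaffold ZO-1, encoded by TJP1, ties them to actin. In the liver these junctions line the bile canaliculi and keep bile apart from blood.

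The libraries held between 32384469 and 41782387 counts, and the biological coefficient of variation was 5.55%. Libraries of the same line differed more than counting allows (chi-square over its degrees of freedom 2.08 to 16.2), and 1-2 KO replicate 1 stood apart from the other two libraries of its line (15.3 and 16.2, against 2.68 between those). The targeted vault RNAs are too short for mRNA libraries and were at 0 or 1 count everywhere, which checks nothing. All 8 hepatocyte markers were present in every line, with a summed level of 14744 to 15703 CPM (counts scaled to TMM library sizes) in WT, 30943 to 31890 in 1-1 KO and 20919 to 22913 in 1-2 KO.

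The genes are spread over 9 chromosomes (GRCh38, GENCODE 44), and only CLDN3 and CLDN4 lie beside each other. On the plus strand are CLDN2 (ENSG00000165376) at chrX:106900164-106930861, CLDN4 (ENSG00000189143) at chr7:73799542-73832690 and OCLN (ENSG00000197822) at chr5:69492292-69558104. On the minus strand are CLDN1 (ENSG00000163347) at chr3:190305707-190322446, CLDN3 (ENSG00000165215) at chr7:73768997-73770270, CLDN6 (ENSG00000184697) at chr16:3014712-3020071 and CLDN7 (ENSG00000181885) at chr17:7259903-7263983. The minus strand also holds CLDN14 (ENSG00000159261) at chr21:36460621-36576569, TJP1 (ENSG00000104067) at chr15:29699367-29968915 and F11R (ENSG00000158769) at chr1:160995211-161021343.

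DNA before annotated starts is shown for the genes on which the comparisons below turn most: CLDN7, with the largest rise in 1-1 KO of the tested members, CLDN2, which moved in opposite directions, and TJP1, which moved with its chromosomal surroundings. Sequences are from RefSeq (GRCh38.p14), each the 250 bases before a start, on the strand of the gene, in windows without an exon in GENCODE 44. Capitals mark the E-box CACCTG, the type bound by ZEB and Snail repressors, or the CCAAT box, on either strand.
CLDN7, chr17:7263214-7263463, minus strand: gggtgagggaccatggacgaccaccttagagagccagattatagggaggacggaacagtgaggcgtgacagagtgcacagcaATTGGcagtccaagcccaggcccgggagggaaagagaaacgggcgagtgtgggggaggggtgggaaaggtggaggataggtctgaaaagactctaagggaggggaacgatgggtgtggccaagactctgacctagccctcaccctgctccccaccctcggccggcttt
CLDN2, chrX:106918110-106918359, plus strand: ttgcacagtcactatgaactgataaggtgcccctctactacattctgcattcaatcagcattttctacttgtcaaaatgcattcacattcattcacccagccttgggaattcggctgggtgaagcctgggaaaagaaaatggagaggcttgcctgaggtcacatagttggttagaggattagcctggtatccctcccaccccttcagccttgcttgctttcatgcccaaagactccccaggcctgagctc
TJP1, chr15:29969050-29969299, minus strand: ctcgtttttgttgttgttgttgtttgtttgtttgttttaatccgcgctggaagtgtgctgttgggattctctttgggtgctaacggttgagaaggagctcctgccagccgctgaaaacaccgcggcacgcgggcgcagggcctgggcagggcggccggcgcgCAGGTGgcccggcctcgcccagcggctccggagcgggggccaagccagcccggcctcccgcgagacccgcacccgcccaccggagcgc
The CLDN7 and CLDN2 windows lie inside the annotated genes, in introns of longer transcripts, and the TJP1 window lies outside and upstream of the gene. The CLDN7 window held 1 CCAAT box, on the opposite strand, beginning 168 bases before the start. A second CLDN7 start, further downstream, had no CCAAT box and 5 E-boxes in its window (chr17:7262479-7262728 and the 50 bases after it), which is not printed because it overlaps an exon. The TJP1 window held 1 E-box, read as CAGGTG, which began 88 bases before the start, and the CLDN2 window held neither. RefSeq listed 17 windows of 300 bases (250 before and 50 after a start) for 9 members, and F11R had no entry. CACCTG on either strand was in 8 of the 17 windows and in at least 1 window of 6 of the 9 genes, against 20.6% of 35116 windows genome-wide. CCAAT was in 4 of 17 windows (34.6% genome-wide) and TATAAA in 0 of 17 (11.5%). These letters describe the windows and say nothing about binding, and several windows belong to the same gene.

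Per length, CLDN6 and CLDN1 made up nearly all claudin mRNA of these cells, and their order differed between lines. In TPM (counts scaled by the exon length of each gene and by the library), CLDN6, an oncofetal claudin, was at 729, 716 and 725 in WT, at 552, 566 and 514 in 1-1 KO and at 780, 807 and 821 in 1-2 KO. CLDN1, a barrier-forming claudin, was at 574, 616 and 661 TPM in WT, at 860, 883 and 844 in 1-1 KO and at 1020, 1004 and 959 in 1-2 KO. CLDN6 was thus the higher of the pair in every WT library and CLDN1 in every knockout library. The ratio of CLDN6 to CLDN1 was 1.18 ± 0.0862 (SD, n = 3) in WT, 0.63 ± 0.0185 in 1-1 KO and 0.808 ± 0.0461 in 1-2 KO. Both together were 94.7% to 96.6% of the summed TPM of all 24 claudins in each library. That sum was 1406 ± 42.5 TPM in WT, 1484 ± 46.6 in 1-1 KO and 1866 ± 19.7 in 1-2 KO, where all 3 libraries lay above those of the other lines, while WT and 1-1 KO overlapped.

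Below this pair the order was TJP1, F11R, OCLN, CLDN7 and CLDN2 in every line, with means in WT of 102, 18.6, 10.6, 3.29 and 2.75 TPM. The libraries of CLDN7 and CLDN2 overlapped in WT, and those of OCLN and CLDN7 overlapped in 1-1 KO, where they were at 14.9 ± 0.354 and 13.8 ± 0.995 TPM (SD, n = 3). CLDN4, CLDN14 and CLDN3 stayed at means under 1 TPM in all lines. CLDN4 was above CLDN14 in WT (0.561 to 0.769 against 0.085 to 0.237 TPM) and below it in 1-2 KO (0.15 to 0.344 against 0.497 to 1.04 TPM), without overlap in either, while their libraries overlapped in 1-1 KO. The ranks were the same when the longest transcript replaced the exon length.

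**Figure D1:**
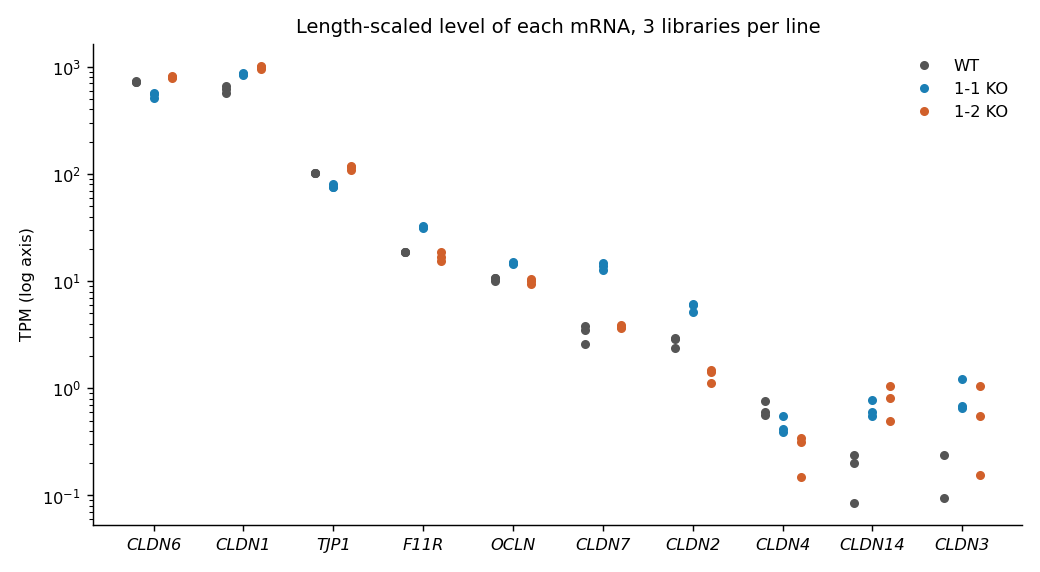
Level of each of the 10 mRNAs in TPM on a log axis, with 1 point per library and the genes ordered by their WT mean. CLDN6 and CLDN1 lie above all others in the 3 lines, and WT replicate 1, with 0 counts of CLDN3, has no point there.

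The question put to the lines was whether loss of either vault RNA goes with other junction mRNA levels, and the answer differed by gene. In 1-1 KO compared to WT, 6 of 9 tested members were higher, 2 were lower and 1 was not called (edgeR, adjusted p under 0.05), while 63.4% of all tested genes were called, 32.5% higher and 30.9% lower. In 1-2 KO compared to WT, 3 were higher, 4 lower and 2 not called, against 54.4% of all genes called, 28.2% higher and 26.2% lower. The libraries of the lines compared did not overlap for 9 of the 9 tested members in 1-1 KO and 8 of 9 in 1-2 KO, where 68.9% and 58.4% of all tested genes did not. The knockouts share the WT libraries, so that these counts are not independent. CLDN14 passed the filter only through the knockouts, which fixed a higher level in at least 1 of them in advance. Among the other 8 tested members, 5 were higher and 2 lower in 1-1 KO, and 2 were higher and 4 lower in 1-2 KO. The median log2 fold change of these 8 was 0.43 in 1-1 KO and -0.04 in 1-2 KO, against 0.01 and 0.02 over all tested genes.

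**Figure D2:**
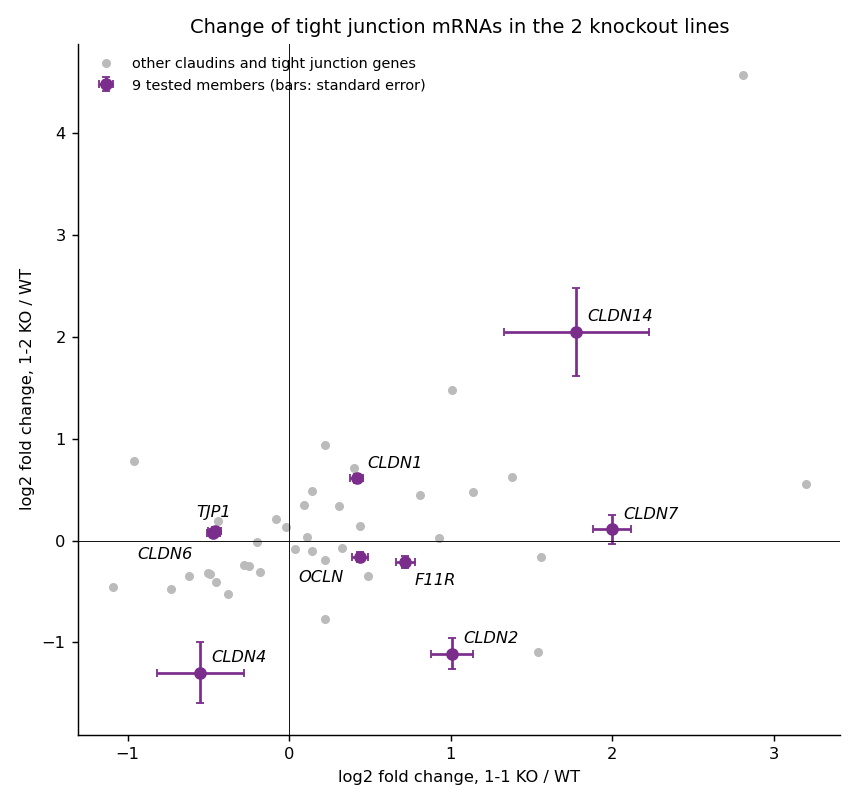
Log2 fold change to WT in 1-1 KO (horizontal) and in 1-2 KO (vertical) for the 9 tested members, with standard errors, and for the other claudins and tight junction genes in grey. CLDN2, OCLN and F11R lie right of and below zero, and CLDN7 lies far right near the horizontal line (2.0 and 0.11).

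Compared directly, 3 members were higher and 5 lower in 1-2 KO than in 1-1 KO, and 1 was not called, where 65.3% of all genes were called, 33.1% higher and 32.2% lower. The libraries did not overlap for 8 of 9, against 69.8% of all genes. Members higher in both knockouts were CLDN1 and CLDN14. CLDN2, OCLN and F11R were higher in 1-1 KO and lower in 1-2 KO, and TJP1 was lower in 1-1 KO and, by a small margin, higher in 1-2 KO. CLDN6 and CLDN7 were called in 1-1 KO alone and CLDN4 in 1-2 KO alone. The direct test separated the knockouts for CLDN6, CLDN7 and, less firmly, CLDN4. Without 1-2 KO replicate 1, which stood apart, the 7 members called in 1-2 KO compared to WT were called in the same directions, and CLDN6 was called as well, with CLDN2 at -0.99 (adjusted p = 1.49e-04, edgeR) and F11R at -0.15 (adjusted p = 0.0454).

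**Figure D3:**
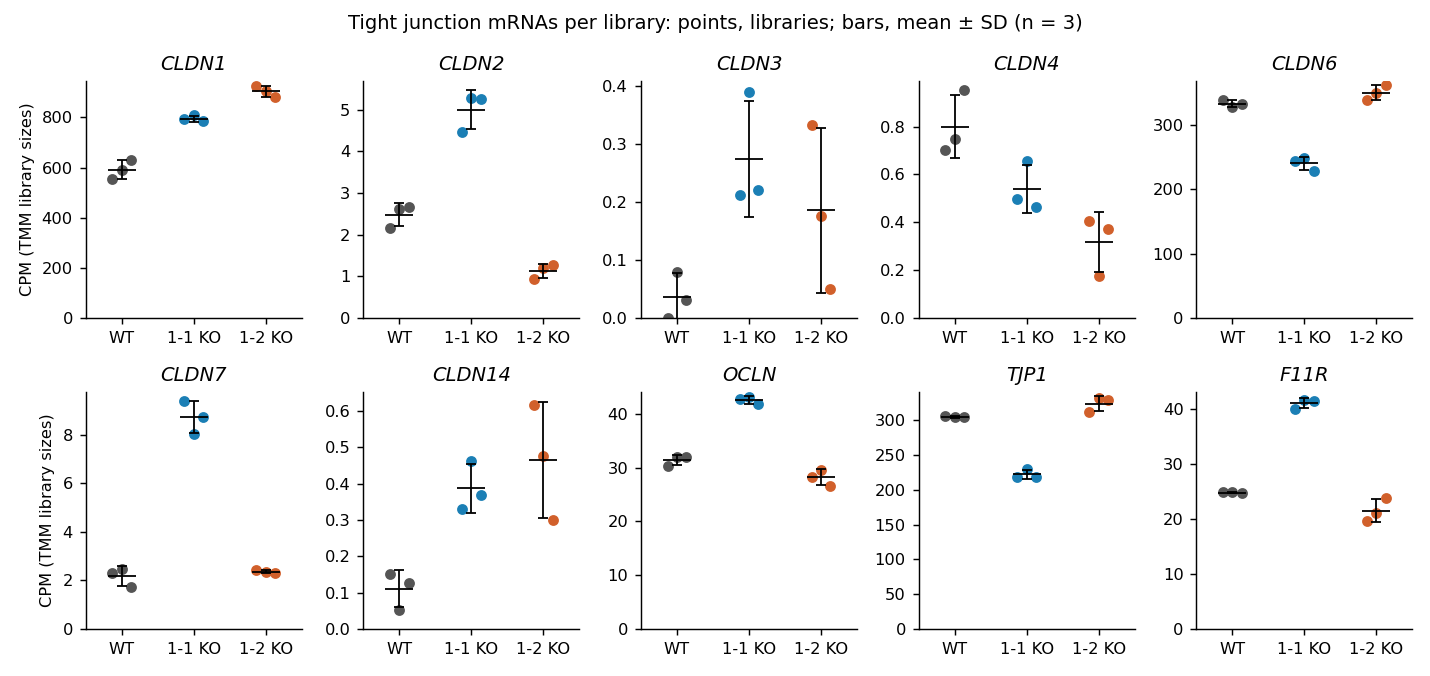
CPM of the 10 members by library (points) with the mean and SD of each line (bars, n = 3), each panel on its own axis from 0. The 3 libraries of CLDN7 in 1-1 KO lie at 8.05 to 9.38 CPM, above all other libraries at 1.71 to 2.48 CPM.

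CLDN7, a claudin of many epithelia that binds EPCAM, was the member with the largest log2 fold change in 1-1 KO. It was at 2.31, 2.48 and 1.71 CPM in WT, at 9.38, 8.05 and 8.73 in 1-1 KO and at 2.42, 2.34 and 2.32 in 1-2 KO. The 1-1 KO libraries lay far above the rest, and WT and 1-2 KO overlapped. Its log2 fold change was 2.0 in 1-1 KO (standard error 0.12, adjusted p = 4.82e-09, edgeR) and 0.11 in 1-2 KO (0.14, adjusted p = 0.521), and the knockouts differed by -1.88 (0.12, adjusted p = 4.88e-09).

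CLDN2, which forms channels for small cations and water, was at 2.16, 2.61 and 2.66 CPM in WT, at 4.47, 5.28 and 5.25 in 1-1 KO and at 0.95, 1.21 and 1.27 in 1-2 KO. No library of a line overlapped those of another, and the order was 1-2 KO, WT, 1-1 KO. The log2 fold change was 1.01 in 1-1 KO (standard error 0.13, adjusted p = 7.99e-06, edgeR) and -1.11 in 1-2 KO (0.15, adjusted p = 2.71e-05). The difference between the knockouts was -2.13 (0.14, adjusted p = 8.53e-09), a 4.37-fold lower level in 1-2 KO. CLDN2 rests on 84 to 98 counts per WT library and 40 to 51 per 1-2 KO library, and it overlaps MORC4 on the opposite strand (1390 to 2079 counts), which was not called in 1-1 KO and had a log2 fold change of -0.37 in 1-2 KO (adjusted p = 2.16e-05, edgeR). The counting's strand setting was not given in the sources used here, so reads of the overlapping stretch cannot be assigned with certainty.

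CLDN1, besides sealing the junction a co-receptor of hepatitis C virus, was at 556, 589 and 631 CPM in WT, at 793, 808 and 784 in 1-1 KO and at 924, 906 and 881 in 1-2 KO. The lines did not overlap, with WT lowest and 1-2 KO highest. Its log2 fold change was 0.42 in 1-1 KO (standard error 0.04, adjusted p = 9.94e-07, edgeR) and 0.61 in 1-2 KO (0.04, adjusted p = 3.22e-08), and 1-2 KO exceeded 1-1 KO by 0.19 (0.04, adjusted p = 0.00174). Both rises were called without any 1 of the 9 libraries.

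CLDN6 was at 338, 328 and 332 CPM in WT, at 244, 248 and 229 in 1-1 KO and at 339, 349 and 361 in 1-2 KO. The 1-1 KO libraries were the low ones, and the lowest 1-2 KO library lay just above the highest WT library. The log2 fold change was -0.47 in 1-1 KO (standard error 0.04, adjusted p = 1.16e-07, edgeR), 0.07 in 1-2 KO (0.04, adjusted p = 0.132) and 0.54 between the knockouts (0.04, adjusted p = 2.08e-08). Without 1-2 KO replicate 1 the value in 1-2 KO was 0.1 and passed the test (adjusted p = 0.0402, edgeR), as it did with scaling by library size alone (0.13, adjusted p = 0.00797). CLDN6 overlaps TNFRSF12A on the opposite strand, which was not called in any comparison.

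The other 3 claudins were scarce. CLDN4, a barrier-forming claudin, had 28, 28 and 30 counts in WT, 21, 27 and 19 in 1-1 KO and 17, 7 and 15 in 1-2 KO. Scaled to library size, the lines did not overlap, with WT highest and 1-2 KO lowest. Its log2 fold change was -1.3 in 1-2 KO (standard error 0.30, adjusted p = 0.00174, edgeR) and -0.55 in 1-1 KO (0.27, adjusted p = 0.0832), which was not called. The difference between the knockouts was -0.75 (0.31, adjusted p = 0.0448). It was no longer called without WT replicate 2 (-0.75, adjusted p = 0.057, edgeR), 1-1 KO replicate 1 (-0.81, 0.0619), 1-1 KO replicate 2 (-0.59, 0.162) or 1-2 KO replicate 2 (-0.47, 0.18), and DESeq2 on all libraries did not call it either (-0.76, adjusted p = 0.12).

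CLDN14, a claudin of liver, kidney and inner ear, had 6, 2 and 4 counts in WT, 14, 19 and 15 in 1-1 KO and 26, 19 and 12 in 1-2 KO. Both knockouts lay above WT and overlapped each other. Its summed counts were 3.5 times those of WT in 1-1 KO (95% exact interval 1.83 to 7.25) and 4.24 times in 1-2 KO (2.25 to 8.68), and the edgeR log2 fold changes were 1.78 (standard error 0.45) and 2.05 (0.43). CLDN3, a barrier-forming claudin whose gene lies beside CLDN4, had 0, 3 and 1 counts in WT, 9, 16 and 9 in 1-1 KO and 14, 7 and 2 in 1-2 KO, and the ratio of summed counts was 7.45 (2.66 to 28.9) in 1-1 KO and 5.13 (1.75 to 20.4) in 1-2 KO. The knockouts overlapped, and 1-2 KO replicate 3 lay within the WT range. These intervals are scaled to library size and cover counting error only, and a count of 0 allows up to 3 counts.

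Occludin, a transmembrane protein of the junction strands and like CLDN1 an entry factor of hepatitis C virus, was at 30.4, 32 and 32 CPM in WT, at 42.7, 43.2 and 41.8 in 1-1 KO and at 28.3, 29.6 and 26.6 in 1-2 KO. The lines did not overlap, with 1-1 KO highest and 1-2 KO closely under WT. The OCLN log2 fold change was 0.44 in 1-1 KO (standard error 0.05, adjusted p = 2.32e-06, edgeR) and -0.16 in 1-2 KO (0.05, adjusted p = 0.0138). The knockouts differed by -0.6 (0.05, adjusted p = 7.68e-08). The fall in 1-2 KO was not called without 1-2 KO replicate 3 (-0.12, adjusted p = 0.072, edgeR) and was not called with scaling by library size alone (-0.10, 0.0903) or with DESeq2 on the 2 lines compared (-0.17, 0.0615).

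F11R, whose product JAM-A is an adhesion molecule that recruits polarity proteins, was at 24.9, 24.9 and 24.7 CPM in WT, at 40, 41.7 and 41.5 in 1-1 KO and at 19.7, 21.1 and 23.8 in 1-2 KO. The 1-1 KO libraries lay well above WT and the 1-2 KO libraries below it, with the widest spread in 1-2 KO. The log2 fold change was 0.72 in 1-1 KO (standard error 0.06, adjusted p = 1.38e-07, edgeR), -0.21 in 1-2 KO (0.06, adjusted p = 0.0125) and -0.93 between the knockouts (0.06, adjusted p = 8.11e-09).

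TJP1 was at 306, 304 and 304 CPM in WT, at 218, 230 and 218 in 1-1 KO and at 312, 332 and 329 in 1-2 KO. The 1-1 KO libraries were far below the others, and the 1-2 KO libraries lay slightly above WT. Its log2 fold change was -0.46 in 1-1 KO (standard error 0.04, adjusted p = 7.63e-08, edgeR) and 0.55 between the knockouts (0.04, adjusted p = 9.07e-09). The value in 1-2 KO was 0.09 (0.04, adjusted p = 0.0489), and it stayed called in 1 of the 9 fits that left out a library, the one without 1-2 KO replicate 1 (0.12, adjusted p = 0.00614, edgeR).

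To see whether a member moved with its surroundings, it was set beside the median of the 50 tested genes nearest to it. TJP1 on chromosome 15 had a log2 fold change of -0.46 in 1-1 KO and its neighbours had a median of -0.43, and after this median was subtracted the change was -0.02 (adjusted p = 0.63, edgeR). With the medians against WT subtracted in each knockout, its difference between the knockouts became 0.06 (adjusted p = 0.145, edgeR). In that direct comparison TJP1 itself had 0.55, and the median of its neighbours was 0.66. OCLN on chromosome 5 and F11R on chromosome 1 went the other way from their surroundings in 1-1 KO, whose medians were -0.44 and -0.30, and they rose by 0.87 and 1.02 relative to them (adjusted p = 2.85e-09 and 5.84e-09). In 1-2 KO, OCLN was 0.10 above its neighbours (adjusted p = 0.107) and F11R remained below (-0.21, adjusted p = 0.0136). CLDN6 on chromosome 16 had neighbours at 0.28 in 1-2 KO, relative to which it was lower (-0.21, adjusted p = 4.00e-04). For CLDN1, CLDN2 and CLDN7 the neighbours' medians lay between -0.07 and 0.11, and the calls in each knockout were the same after subtraction. What shifts the neighbourhoods was not tested.

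The nearest tested genes on either side of the members did not move as a block. OCLN lies between MARVELD2, which encodes tricellulin of tricellular contacts, and GTF2H2C, a transcription factor IIH subunit gene. MARVELD2 moved in the directions of OCLN, with a log2 fold change of 0.22 in 1-1 KO (adjusted p = 0.00168, edgeR) and -0.77 in 1-2 KO (adjusted p = 1.93e-08), and GTF2H2C fell in both (-0.71 and -0.44). CLDN1 lies 95 bases from CLDN16, a claudin of magnesium reabsorption in the kidney that runs the other way, and CLDN16 fell in both knockouts (-0.18 and -0.31) where CLDN1 rose. The CLDN16 call in 1-1 KO was lost with DESeq2 (-0.19, adjusted p = 0.0626), with library size alone (-0.13, 0.0867), with no filter (-0.20, 0.0722), and at -0.17 without WT replicate 2, 1-1 KO replicate 1 or 1-1 KO replicate 3 (adjusted p = 0.071, 0.0795 and 0.074, edgeR). GTF2H2C belongs to a duplicated region, so its counts are uncertain. CLDN7 overlaps ELP5 on the opposite strand, which was not called in any comparison (0.03 and 0.05), and its next gene SLC2A4, the insulin-regulated glucose transporter, was higher in both (0.44 and 0.55). On the same strand, CLDN7 and F11R each overlap a protein-coding gene without a symbol (0 counts, and 2 to 15 counts). How reads shared by overlapping genes were counted is not given in the sources used here. P3H2, on the other side of CLDN1, fell in both (-0.24 and -0.28), as did RBM41 next to CLDN2 (-0.20 and -0.32). TSTD1 next to F11R was lower in 1-2 KO (-1.38, adjusted p = 2.84e-04, edgeR) and had -0.23 in 1-1 KO (adjusted p = 0.356). CHAF1B beside CLDN14 was higher in 1-1 KO (0.44) and HLCS on its other side in 1-2 KO (0.21). METTL27 and ABHD11, the nearest tested genes on either side of CLDN4, were not called in either knockout. CLDN3, which was not tested, lies between ABHD11 and CLDN4. The pseudogenes OCLNP1 and CLDN7P1 had 0 counts in all libraries.

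Of the 17 other claudins, 7 were tested, and 1 was higher and 3 lower in 1-1 KO, and 2 higher and 2 lower in 1-2 KO. Called were 57.1% of the 7 in each knockout, against 63.4% and 54.4% of all tested genes. CLDN12, the most abundant of them, was at 46.9 CPM in WT and 40.8 in 1-1 KO (log2 fold change -0.20, adjusted p = 0.00116, edgeR) and was not called in 1-2 KO (-0.01). CLDN15, a cation channel claudin, fell in both (-0.38 and -0.53), and its call in 1-1 KO was lost with DESeq2 (adjusted p = 0.0572), relative to neighbouring genes (-0.06, adjusted p = 0.719, edgeR) and without WT replicate 1 (-0.34, 0.0515) or 1-1 KO replicate 3 (-0.30, 0.0695). CLDN19, a partner of CLDN16, rose in 1-2 KO (0.49, adjusted p = 0.00198). CLDN11, the claudin of myelin, rose in both (1.01 and 1.48) at means under 0.5 CPM, and like CLDN14 it passed the filter through the knockouts. The CLDN11 call in 1-1 KO held in 4 of the 9 fits that left out a library and was lost with DESeq2 (adjusted p = 0.115). CLDN18 and CLDN23 were not called in any comparison.

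Of the 33 other tight junction genes, 30 were tested. In 1-1 KO 16 were higher and 9 lower, with a median log2 fold change of 0.22, and in 1-2 KO 11 were higher and 12 lower, with a median of -0.03. The share called was 83.3% and 76.7%, against 63.4% and 54.4% of all tested genes. ILDR1, among the 16, passed the filter on low counts only through 1-1 KO, which favoured a rise there. AMOT, which encodes a scaffold that binds YAP, was at 3.34, 2.88 and 3.52 CPM in WT, at 22.3, 23.0 and 22.9 in 1-1 KO and at 71.6, 79.3 and 79.6 in 1-2 KO. Each line stood clear of the others, and the log2 fold changes were 2.81 (adjusted p = 1.42e-12, edgeR) and 4.57 (adjusted p = 8.29e-15). LSR, which places tricellulin at tricellular contacts, rose in both (1.38 and 0.62), and the polarity gene PARD3 (-0.73 and -0.48) and the junction scaffold CGN (-0.45 and -0.41) fell in both. TJP3, the gene of the scaffold ZO-3, was chosen after its values were seen and was at 1.06 to 1.08 CPM in WT, 9.17 to 10.2 in 1-1 KO and 1.17 to 1.81 in 1-2 KO, a log2 fold change of 3.20 in 1-1 KO (adjusted p = 1.68e-10, edgeR).

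Adherens junction and desmosome genes, which hold cells together below the tight junction, had 10 of 17 tested genes higher and 4 lower in 1-1 KO, and 4 higher and 8 lower in 1-2 KO. Called were 82.4% and 70.6% of these genes, against 63.4% and 54.4% of all tested genes. Compared directly, 5 were higher and 11 lower in 1-2 KO than in 1-1 KO, with a median of -0.37 against 0.01 for all genes. The share called there was 94.1%, against 65.3% of all tested genes. In the same comparison, 10 of the 30 tested other tight junction genes were higher and 12 lower (median -0.04, 73.3% called). Of the 7 tested other claudins, 2 were higher and 0 lower (median 0.25, 28.6% called). The desmosomal genes DSG2 (1.18 and -0.16) and DSP (0.63 and -0.69) and the adhesion gene CDH1 (0.48 and -1.48) were higher in 1-1 KO and lower in 1-2 KO, as CLDN2, OCLN and F11R were. PKP2, a desmosomal plaque gene, was higher in 1-1 KO (0.91), and its value in 1-2 KO was 0.02 (adjusted p = 0.683, edgeR). VCL, the gene of vinculin, fell by 0.99 in 1-1 KO and by 0.12 in 1-2 KO on the log2 scale, CTNNA1, the gene of alpha-catenin, had -0.32 and 0.16, and NECTIN1 was higher in both (0.17 and 0.31), in 1-1 KO in 7 of the 9 fits that left out a library.

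**Figure D4:**
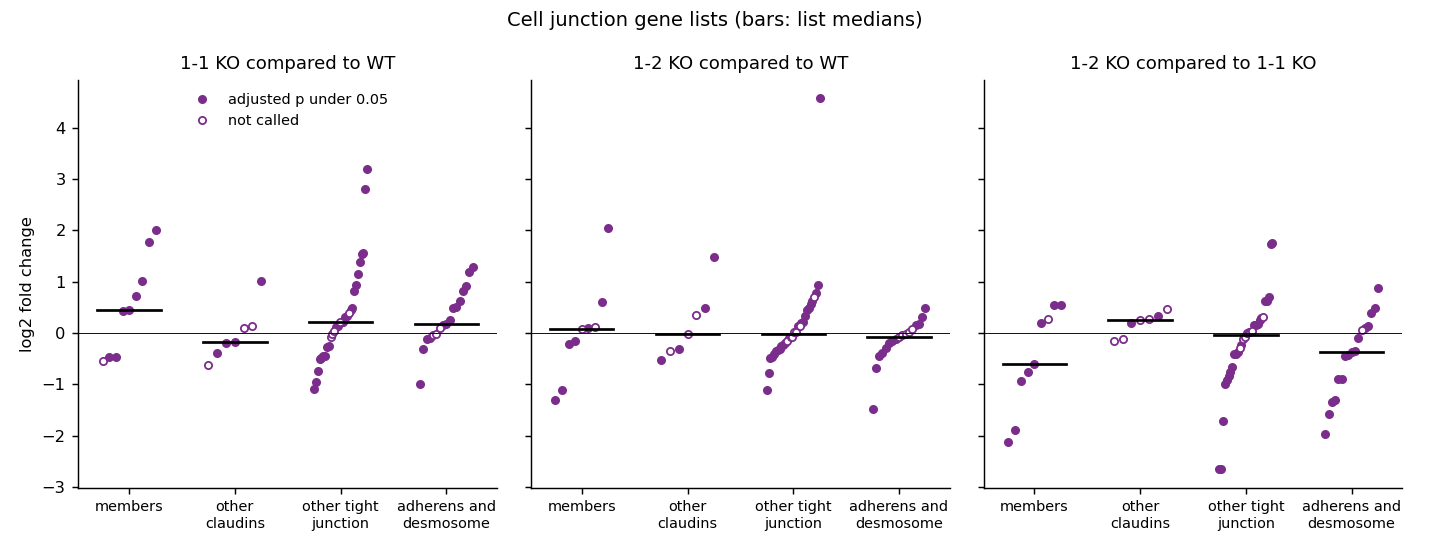
Log2 fold change of each tested gene of 4 junction lists in the 3 comparisons, with called genes filled, genes not called open and the list median as a bar. The member median is 0.44 in 1-1 KO compared to WT, 0.07 in 1-2 KO compared to WT and -0.6 in 1-2 KO compared to 1-1 KO, and without CLDN14, which passed the filter only through the knockouts, it is 0.43, -0.04 and -0.68.

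For each member called in both knockouts, the 2 of 54 other junction genes nearest in their pair of log2 fold changes to WT were taken, a likeness over 3 line means. CLDN1 was nearest to JAM3 (distance 0.10 on the log2 scale), a scarce mRNA that was not called, and AMOTL2 (0.30). CLDN2 was nearest to MARVELD3 (0.53), another occludin-like gene with log2 fold changes of 1.54 and -1.1, and to DSP (0.58). OCLN was nearest to CXADR (0.14) and F11R to JUP (0.15). Neither was called in 1-2 KO compared to WT (CXADR -0.07, adjusted p = 0.0893, and JUP -0.08, adjusted p = 0.327, edgeR). TJP1 was nearest to MPDZ (0.11) and CTNNA1 (0.15). CLDN14 had no close match, with CLDN11 at 0.96 and LSR at 1.48.

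Among 23 epithelial transcription factor genes, 18 were tested, and 8 were higher and 3 lower in 1-1 KO, and 9 higher and 4 lower in 1-2 KO. The share called was 61.1% in 1-1 KO, near the 63.4% of all tested genes, and 72.2% in 1-2 KO, against 54.4%. OVOL2 passed the filter on low counts only through 1-1 KO and OVOL1 only through the knockouts, which favoured rises there. CDX2, an intestinal factor, was at 1.76 to 2.44 CPM in WT, 19.0 to 20.3 in 1-1 KO and 16.4 to 19.4 in 1-2 KO, log2 fold changes of 3.28 and 3.14 (adjusted p = 1.02e-11 and 1.93e-11, edgeR). ELF3 rose in both (0.61 and 0.60), and KLF5 (0.77 and -0.17) and SOX9 (0.36 and -0.51) were higher in 1-1 KO and lower in 1-2 KO. The repressor gene ZEB1 fell in 1-1 KO (-0.54, adjusted p = 3.54e-07) and had -0.05 in 1-2 KO (adjusted p = 0.42). ZEB2, a scarcer relative, fell in 1-1 KO (-0.85, adjusted p = 2.27e-04) and rose in 1-2 KO (1.46, adjusted p = 3.18e-07). Whether any of these factors bears on the junction genes was not tested.

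Markers of cell state moved beside these results. All 8 hepatocyte markers were higher in 1-1 KO, and in 1-2 KO 3 were higher, 3 lower and 2 not called. Of all tested genes, 32.5% were higher in 1-1 KO and 54.4% were called in 1-2 KO. ALB, the gene of albumin, and AFP, that of alpha-fetoprotein, were higher in both knockouts (1.90 and 0.90, and 2.22 and 2.08 on the log2 scale). The list of 13 markers of other cell types had a summed level of 274 to 308 CPM in WT, 466 to 474 in 1-1 KO and 329 to 426 in 1-2 KO. Under 1 CPM in all libraries were 7 of the 13 in each line, which included PTPRC in WT and 1-1 KO but PECAM1 in 1-2 KO. Of the fibroblast and mural genes, COL1A2 (1.73 and 0.98) and PDGFRB (1.61 and 1.87) were higher in both knockouts, and COL1A1 had -0.12 in 1-1 KO (adjusted p = 0.132, edgeR) and was higher in 1-2 KO (0.22). The endothelial gene PECAM1 had -0.18 in 1-1 KO (adjusted p = 0.0965, edgeR) and was lower in 1-2 KO (-3.17, adjusted p = 5.05e-11), and CDH5, at 1 to 2 counts per WT library, was at 0 in 1-1 KO and at 3 to 7 in 1-2 KO. The leukocyte gene PTPRC was higher in both (1.73 and 2.65) from 3 to 8 counts per WT library, and the biliary gene KRT7 was lower in both (-3.8 and -1.79) from 11 to 19 counts. PTPRC passed the filter on low counts only through the knockouts and KRT7 only through WT, so the filter favoured these directions. DCN, VWF, CD3E and CD68 had 0 to 6 counts per library. Most of the sum was KRT19 and EPCAM, which epithelial tumor cells also express. KRT19, also a biliary gene, was higher in 1-1 KO (275 to 283 CPM) than in WT (198 to 233 CPM). In 1-2 KO KRT19 was at 232 to 335 CPM and overlapped WT. EPCAM rose by 1.55 in 1-1 KO (adjusted p = 5.07e-13, edgeR) and had -0.03 in 1-2 KO. The part of these shifts in the junction results was not tested, and in bulk RNA fewer cells with an mRNA and less of it per cell cannot be told apart.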

How the data were processed

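Per the methods of the study, the authors aligned paired reads of TruSeq stranded mRNA libraries with STAR to GRCh38 and summarised them by gene in featureCounts. The authors deposited the raw counts of 9 libraries. Tool versions and the strand setting are not given in the sources used here. From the counts, edgeR 4.0.16 in R 4.3.3 (filterByExpr with a minimum count of 10 and total of 15, TMM, 1 quasi-likelihood fit with a term per line) tested 17207 genes, with Benjamini-Hochberg adjustment over all of them and a threshold of 0.05. CPM used TMM library sizes, and TPM used exon lengths of GENCODE 44. The study names another reference version, so the exons counted may differ from those that set the lengths. Of the 60664 gene identifiers, 201 were not matched to GENCODE 44. Alternatives, among them DESeq2 1.42.0, other scalings and filters, and each library left out, are in the closing part. The fit was tested on simulated data. Replicate numbers did not pair the libraries.

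The members, the gene lists and the alternatives were chosen with earlier results of these data known. Named genes are the members, each tested other claudin, the 2 genes of smallest adjusted p per direction and knockout in each other list, the 2 genes most like each member called in both knockouts, and the next tested genes of called members, of which those without a symbol, pseudogenes and non-coding genes are left out. ILDR1, OVOL1 and OVOL2 are named for how they passed the filter. A gene that these rules select is not reported here. Python 3.11.15, pandas 2.3.3, numpy 2.4.6, scipy 1.17.1 and matplotlib 3.10.9 were used. Intervals and floors cover counting error only.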

Additional observations from a re-analysis of the deposited data

Results flagged for a closer look

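The direction relative to WT was opposite in the knockouts for 4 members, each called in both, and the knockouts were compared directly with edgeR. These members were picked for opposite calls against the same WT libraries. The direct test came from the same fit, so a difference was largely fixed in advance. In 1-2 KO compared to 1-1 KO the log2 difference was -2.13 for CLDN2 (adjusted p = 8.53e-09), -0.93 for F11R (8.11e-09), -0.6 for OCLN (7.68e-08) and 0.55 for TJP1 (9.07e-09). For TJP1 the call of the rise in 1-2 KO (0.09) was lost in most alternatives. Its direct difference was 0.06 (adjusted p = 0.145, edgeR) with the neighbours' medians against WT subtracted in each knockout. The neighbours' median in the direct comparison was 0.66. The OCLN fall in 1-2 KO (-0.16) lost its call with library size alone (-0.10, adjusted p = 0.0903, edgeR) and without 1-2 KO replicate 3 (-0.12, 0.072). Relative to neighbouring genes OCLN was at 0.10 in 1-2 KO (adjusted p = 0.107, edgeR).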

How the results depend on the processing

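Over the 9 tested members in 3 comparisons, 242 of the values under alternatives other than leaving out a library kept their direction and side of the threshold, 19 lost and 1 gained a call, and 2 reversed. Both reversals came with the median of neighbouring genes subtracted, CLDN6 at -0.21 and OCLN at 0.10 in 1-2 KO compared to WT. Leaving out a library kept 229 values, with 13 calls lost and 1 gained. Members called lower fell from 2 to 1 in 1-1 KO with neighbours subtracted, and from 4 to 2 in 1-2 KO with an adjusted p under 0.01. Other claudins higher in 1-1 KO fell from 1 to 0 with at least 10 counts in every library, with both DESeq2 fits and with an adjusted p under 0.01, and were 0 to 1 with a library left out (0 without WT replicate 2 or 3, 1-1 KO replicate 1 or 2, or 1-2 KO replicate 2). Those lower in 1-1 KO fell from 3 to 1 with both DESeq2 fits and with an adjusted p under 0.01, and were 1 to 3 with a library left out (1 without 1-1 KO replicate 3), with CLDN15 and CLDN16 losing their calls under DESeq2. Other claudins higher in 1-2 KO compared to WT fell from 2 to 1 with at least 10 counts in every library. In 1-2 KO compared to 1-1 KO those higher fell from 2 to 1 with DESeq2 on 2 groups and with an adjusted p under 0.01, and were 1 to 2 with a library left out (1 without 1-1 KO replicate 1), and those lower rose from 0 to 1 with neighbours subtracted. Adherens junction and desmosome genes lower in 1-1 KO went from 4 to 2 with library size alone and with an adjusted p under 0.01, to 7 with neighbours subtracted, and were 2 to 4 with a library left out (2 without 1-1 KO replicate 1 or 3). In 1-2 KO compared to 1-1 KO those higher fell from 5 to 3 with an adjusted p under 0.01 and were 3 to 6 with a library left out (3 without WT replicate 3, 1-1 KO replicate 1 or 3, or 1-2 KO replicate 2 or 3), and those lower fell from 11 to 7 with neighbours subtracted. The cause was not tested. The TJP1 value in 1-2 KO compared to WT (0.09) lost its call in every alternative of fit, filter, threshold or scaling except library size alone and a minimum of 10 counts throughout, at 0.08 with the DESeq2 size factors (adjusted p = 0.0692). The replicate number as a block, for libraries whose deviations with the same number correlated between -0.187 and 0.047, ended the calls of CLDN4 between the knockouts (-0.76, adjusted p = 0.0669, edgeR) and of TJP1 in 1-2 KO compared to WT (0.09, 0.0642) and no other member's call. Counts of at most 30 per library limit CLDN3, CLDN4 and CLDN14.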
